A study of Mus musculus with 18 samples.

Results

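Hydrogen peroxide and superoxide are cleared by a small set of enzymes, and 10 of their genes were followed here by symbol: the peroxiredoxins Prdx1, Prdx2, Prdx3, Prdx5 and Prdx6, the glutathione peroxidases Gpx1 and Gpx4, the superoxide dismutases Sod1 and Sod2, and catalase (Cat). They are 10 of the 30905 genes counted, and all 10 had counts in every major cell type of both brain regions. The counts came from nuclei of the hippocampus (Hip) and the prefrontal cortex (PFC) of 9 Kun Ming mice aged 8 weeks, 1 library per mouse and region, 18 libraries in all. Germ-free (GF) mice carry no gut microbes, specific pathogen free (SPF) mice carry a conventional flora, and colonized germ-free (CGF) mice were born germ-free and co-housed with SPF mice for the last 4 weeks, with 3 mice in each group. GF and CGF mice lived in gnotobiotic isolators and SPF mice did not, so housing and colonization cannot be told apart between GF and SPF, whereas GF and CGF mice had the same kind of housing. CGF mice met microbes only from the age of 4 weeks, and their cages held an SPF mouse, which limits them as a model of life with microbes from birth.

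As background, superoxide leaks mainly from the mitochondrial respiratory chain and is turned into hydrogen peroxide by the dismutases, Sod1 in the cytosol and Sod2 in the mitochondrial matrix. Peroxiredoxins then reduce hydrogen peroxide with a reactive cysteine that thioredoxin restores, except Prdx6, which uses glutathione. Gpx1 and Gpx4 are selenoproteins that draw on glutathione, and Gpx4 is the enzyme that reduces lipid peroxides within membranes and so holds back ferroptosis. Catalase splits hydrogen peroxide in peroxisomes without a reducing partner. In brain, astrocytes are known as the main holders of Prdx6 and of much of the glutathione supply.

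The promoters of the members that the results turn on are given here as the 250 bases before the start site, 5′ to 3′, from RefSeq on GRCm38.p6, and 9 of the 10 members matched the RefSeq table (Prdx6 did not). Capitals mark 3 motifs found on either strand in a window of 250 bases before to 50 bases after the start: the core of the antioxidant response element (TGACNNNGC), to which NRF2 binds, the GC box (GGGCGG) and the CCAAT box (CCAAT). Prdx1 and Sod1 are shown as the members whose window held the antioxidant response core, Prdx5 as the member with the broadest rise in GF mice, Gpx4 for its opposite direction in the 2 regions, and Cat as the member that was lower in GF mice of both regions. These directions are of shares of UMIs, and the PFC ones turn per nucleus for Gpx4 and Cat, as given below.
Prdx1: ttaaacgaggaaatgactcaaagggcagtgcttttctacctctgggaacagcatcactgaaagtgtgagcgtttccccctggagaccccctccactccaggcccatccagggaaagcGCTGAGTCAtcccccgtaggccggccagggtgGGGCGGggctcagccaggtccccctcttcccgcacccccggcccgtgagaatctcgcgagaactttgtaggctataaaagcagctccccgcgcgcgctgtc
Sod1: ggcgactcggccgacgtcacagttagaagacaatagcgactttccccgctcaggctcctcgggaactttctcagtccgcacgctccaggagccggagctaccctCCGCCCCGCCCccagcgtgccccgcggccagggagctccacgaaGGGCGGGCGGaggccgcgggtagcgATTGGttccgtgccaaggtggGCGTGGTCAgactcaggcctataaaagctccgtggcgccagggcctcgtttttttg
Prdx5: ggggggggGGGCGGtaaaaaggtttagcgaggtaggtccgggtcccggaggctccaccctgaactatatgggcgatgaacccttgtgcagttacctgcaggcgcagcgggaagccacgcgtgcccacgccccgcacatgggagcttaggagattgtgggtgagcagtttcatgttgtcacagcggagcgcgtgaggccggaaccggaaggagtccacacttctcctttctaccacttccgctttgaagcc
Gpx4: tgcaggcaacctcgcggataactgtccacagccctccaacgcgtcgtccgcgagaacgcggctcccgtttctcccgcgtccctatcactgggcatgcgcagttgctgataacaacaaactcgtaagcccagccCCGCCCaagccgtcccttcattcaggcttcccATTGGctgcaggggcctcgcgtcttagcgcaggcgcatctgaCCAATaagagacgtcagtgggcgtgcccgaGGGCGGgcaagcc
Cat: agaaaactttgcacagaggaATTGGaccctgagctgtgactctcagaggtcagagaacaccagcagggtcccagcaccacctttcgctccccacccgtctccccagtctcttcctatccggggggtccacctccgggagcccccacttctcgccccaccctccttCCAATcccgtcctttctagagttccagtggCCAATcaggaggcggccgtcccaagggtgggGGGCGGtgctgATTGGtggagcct
The stretches lie at chr4:116685349-116685598 (plus strand) for Prdx1, chr16:90220512-90220761 (plus strand) for Sod1, chr19:6910107-6910356 (minus strand) for Prdx5, chr10:80053315-80053564 (plus strand) for Gpx4, which is 1 of several windows RefSeq gives this gene, and chr2:103485154-103485403 (minus strand) for Cat. The antioxidant response core began 133 bases before the start of Prdx1 and 56 bases before the start of Sod1, and 12.4% of all 32544 promoter windows of the same length held it. A GC box, present in 35.9% of all windows, lay in at least 1 window of each of the 9 matched members. The CCAAT box, present in 37.4% of all windows, occurred 4 times in the Cat window and 3 times in the Gpx4 window, 2 of them in the stretch shown. A match is a description of letters and not of binding, and no methylation or factor binding was measured here.

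The genes lie apart in the genome (GRCm38, GENCODE vM21), on chromosomes 4 (Prdx1, 116685544 to 116700822), 8 (Prdx2, 84969587 to 84974834), 19 (Prdx3, 60864051 to 60874556, and Prdx5, 6906697 to 6910106), 1 (Prdx6, 161240112 to 161251219), 9 (Gpx1, 108338903 to 108340343), 10 (Gpx4, 80047166 to 80056439), 16 (Sod1, 90220754 to 90226329), 17 (Sod2, 13006846 to 13040063) and 2 (Cat, 103453849 to 103485160). Prdx2, Prdx5 and Sod1 overlap genes on the other strand: Prdx2 shares 181 bases with Rnaseh2a at its start and 351 with Junb at its end, Prdx5 shares 409 with Trmt112, and Sod1 shares 650 with Scaf4. Whether counting used the strand is not given in the sources used here, so reads from those stretches may be credited to either gene.

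Nuclei were assigned to cell types by marker genes, and 67516 of 71398 nuclei in the Hip and 61474 of 66602 in the PFC received a type. The 6 major types are excitatory neurons, interneurons, astrocytes, oligodendrocytes, oligodendrocyte precursor cells (OPC) and microglia, and markers held out of the assignment were found in each of them. Total UMIs (unique molecular identifiers, 1 per captured RNA molecule) per library ran in the Hip from 49067853 to 56240654 for GF mice, from 55558458 to 63217083 for SPF mice and from 54526815 to 62313617 for CGF mice, and median UMIs per excitatory nucleus were 6071 to 6863 in GF against 8662 to 9715 (SPF) and 7692.5 to 10343 (CGF), so that GF nuclei were the shallower ones. In the PFC the GF libraries held 59126586 to 71463928 UMIs and the SPF and CGF libraries 20336250 to 26949210. The share of mitochondrial UMIs also moved with the groups, in opposite directions in the 2 regions: it was 0.645 to 1.10% in GF against 0.128 to 0.471% in SPF in the Hip, and 0.359 to 0.594% in GF against 1.66 to 3.22% in SPF in the PFC. The summed level of 4 red blood cell markers (Hbb-bs, Hbb-bt, Hba-a1, Hba-a2) was 35.4 to 380 counts per 1000000 UMIs (CPM) in GF and 7.21 to 77.1 in SPF in the Hip, with 30.3 to 439 and 0 to 43.0 in the PFC. In CGF mice the mitochondrial share was 0.0770 to 0.218% in the Hip and 1.28 to 2.24% in the PFC, and the blood markers ran from 11.6 to 122 and from 14.0 to 339. In the 6 major types of the Hip, 4 choroid plexus markers (Ttr, Kl, Sostdc1, Aqp1) summed to 5.36 to 7723 CPM in GF, 83.4 to 2270 for SPF and 7.81 to 946 for CGF mice, and in the PFC to at most 7.44. The part of depth, mitochondrial share, blood and choroid plexus markers in the results that follow was not tested, apart from the alternatives named beside them. Levels are given as counts per 1000000 UMIs of the type in that mouse (CPM), and the mouse is the replicate throughout, so p-values measure the spread between mice.

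In the hippocampus the peroxidase genes were higher in GF than in SPF mice in nearly every cell type, Sod2 was modestly higher, Sod1 was not called in any type and Cat was lower in 2 types. Of 58 pairs of member and cell type that could be tested, 42 were higher in GF (72.4%) and 2 were lower (3.45%), where 19.3% of all pairs of gene and type were higher and 16.3% lower (edgeR's quasi-likelihood test, adjusted over all genes of a type, threshold 0.05). The median log2 change of the members was 0.87 to 1.04 by type, while the median of all genes was between -0.05 and 0.04. The mean scaling factors of the groups differed by at most 0.20 on the log2 scale in the Hip and 0.18 in the PFC.

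**Figure D1:**
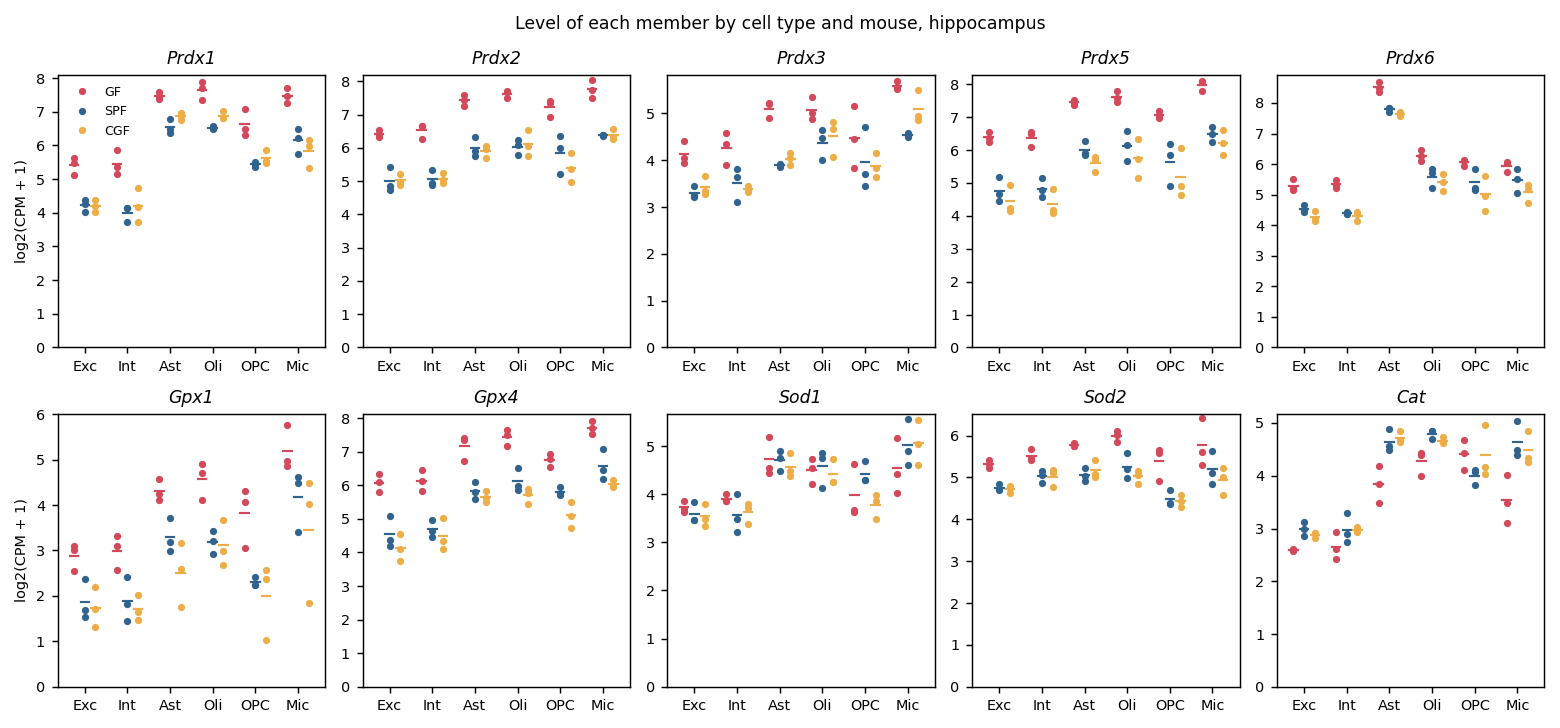
Levels of the 10 members in the Hip, 1 panel per gene: log2(CPM + 1) on the y axis, the 6 major cell types on the x axis, 1 point per mouse (GF red, SPF blue, CGF yellow) and a dash for the mean of 3 mice. The GF points of Prdx1, Prdx2, Prdx5 and Gpx4 stand above the SPF and CGF points in each type, while those of Sod1 mix with them.

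Among the cytosolic peroxiredoxins, Prdx2, which is best known from red blood cells and is also abundant in neurons, was higher in GF in all 6 types. In Hip oligodendrocytes its level was 179, 211 and 205 CPM in the GF mice, 67.0, 54.8 and 74.3 in the SPF mice and 53.0, 65.9 and 92.4 in the CGF mice. The 3 GF mice lay well above all others, and SPF and CGF mice overlapped. The log2 difference between GF and SPF was 1.64 (SE 0.17, adjusted p = 2.8e-05) in these cells, and the other types ran from 1.26 in excitatory neurons to 1.45 in astrocytes. Because Prdx2 is itself a red blood cell gene, the blood marker ranges given above belong beside this value. Prdx1, a scavenger induced by NRF2, was likewise higher in all 6 types, by 0.93 in astrocytes to 1.41 in interneurons. In Hip microglia Prdx1 stood at 176, 207 and 153 in GF, at 73.5, 88.6 and 52.5 in SPF and at 38.8, 71.0 and 62.1 in CGF mice. GF mice again did not overlap with either other group (GF minus SPF 1.29, SE 0.22, adjusted p = 0.000192).

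Prdx5, which acts in mitochondria, peroxisomes and cytosol, showed the most even rise of the family across Hip types, 1.29 in OPC to 1.48 in oligodendrocytes. In excitatory neurons it was measured at 74.5, 91.9 and 82.0 in GF, at 20.8, 24.6 and 35.3 in SPF, and at 16.8, 17.7 and 29.6 in CGF mice. The groups were far apart, and SPF and CGF mice overlapped (GF minus SPF 1.47, SE 0.22, adjusted p = 0.00067). Prdx3, the peroxiredoxin of the mitochondrial matrix, was higher in 5 of 6 types, but 3 of these calls ended under alternatives: microglia by DESeq2 (adjusted p = 0.0589), interneurons with the stricter gate or without GF mouse 6 or 7 or SPF mouse 32, and oligodendrocytes with the stricter gate, the 0.5% mitochondrial limit or without GF mouse 6 or SPF mouse 31. Its levels in Hip astrocytes were 35.7, 28.7 and 36.1 in GF, 13.5, 14.1 and 13.9 in SPF, and 16.8, 13.9 and 15.5 in CGF mice. The difference there was 1.30 (SE 0.18, adjusted p = 0.000104), and OPC gave 0.46 (SE 0.39, adjusted p = 0.428).

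Prdx6, the peroxiredoxin that draws on glutathione and also repairs oxidised phospholipids, changed less and was called in 4 of 6 types. Hip astrocytes, its main holders, gave 360, 415 and 330 in GF, 225, 230 and 206 in SPF, and 206, 196 and 189 in CGF mice. The groups were clearly apart, with a log2 difference of 0.75 (SE 0.12, adjusted p = 0.000208). OPC (0.55, SE 0.25, adjusted p = 0.128) and microglia (0.41, SE 0.27, adjusted p = 0.272) were not called. Per 1000 nuclei the GF and SPF ranges of Prdx6 overlapped in oligodendrocytes (162 to 184 and 91.3 to 173). In astrocytes they did not (895 to 1050 and 744 to 810).

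Both glutathione peroxidases were higher in GF mice. Gpx4 passed in all 6 Hip types, from 0.89 in OPC to 1.38 in excitatory neurons, although the OPC call was lost with the 0.5% mitochondrial limit (0.66, adjusted p = 0.0574). In excitatory neurons Gpx4 was 54.9, 79.8 and 68.0 in GF, 19.6, 17.3 and 33.1 in SPF, and 12.5, 16.2 and 22.6 in CGF mice (GF minus SPF 1.38, SE 0.26, adjusted p = 0.00188). Every GF mouse exceeded every SPF and CGF mouse. Gpx1, the cytosolic enzyme, was sparse in neurons and passed in 4 of 5 types tested. In Hip oligodendrocytes it was 16.4, 25.0 and 28.9 in GF, 6.60, 8.19 and 9.72 in SPF, and 5.42, 6.96 and 11.8 in CGF mice (1.54, SE 0.30, adjusted p = 0.00132). After correcting each library for its dependence on gene length and GC content, none of the 5 types was called and the median fell from 1.07 to 0.21. Leaving out GF mouse 6 or 7 or SPF mouse 30 or 31 also ended its call in excitatory neurons, and leaving out GF mouse 7 or SPF mouse 30 or 31 ended those in interneurons and astrocytes. Microglia, the Hip type in which it did not pass, held 6 to 13 Gpx1 UMIs per SPF mouse.

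The dismutases differed from each other. Sod1 was called in none of the 6 types: in Hip excitatory neurons it was 12.0, 13.5 and 11.4 in GF, 10.1, 10.0 and 13.4 in SPF, and 10.3, 9.14 and 12.9 in CGF mice, so that the groups overlapped (-0.02, SE 0.14, adjusted p = 0.925). Per 1000 nuclei, which was not tested, GF had 90.2 to 96.5 Sod1 UMIs and SPF 98.0 to 137, while CGF overlapped with both (84.3 to 120). Sod2 was higher in 5 of 6 types, by 0.38 in interneurons to 0.87 in OPC, and in Hip oligodendrocytes it was 63.4, 67.6 and 56.2 in GF, 35.5, 30.9 and 46.7 in SPF, and 32.5, 27.8 and 34.7 in CGF mice. The oligodendrocyte difference was 0.76 (SE 0.17, adjusted p = 0.00356). Per 1000 nuclei the GF and SPF ranges of Sod2 overlapped in oligodendrocytes (134 to 153 and 77.2 to 143) and interneurons (302 to 357 and 277 to 331). In excitatory neurons they did not (291 to 310 and 259 to 272). Both ends of the range of Sod2 were less firm: the interneuron call was lost by DESeq2 (adjusted p = 0.0630), with thinned sums and without GF mouse 6 or SPF mouse 31 or 32, and the OPC call by DESeq2 (adjusted p = 0.103), with thinned sums, the stricter gate and the 0.5% mitochondrial limit, and without GF mouse 6 or 7 or SPF mouse 30 or 31.

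Catalase was the only member with a lower call in the Hip. In astrocytes Cat was 17.1, 13.4 and 10.1 in GF, 21.4, 28.6 and 22.6 in SPF, and 23.9, 24.5 and 27.7 in CGF mice, with no GF mouse reaching the level of another group. The difference was -0.83 (SE 0.22, adjusted p = 0.00944), but without GF mouse 7 it was -0.66 and no longer passed (adjusted p = 0.0612). Excitatory neurons gave -0.62 (SE 0.10, adjusted p = 0.00106).

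Removing the length and GC trend brought the Hip count from 42 higher to 32, with Prdx3 then called in 2 types and Prdx6 in 3, while Prdx1 and Prdx2 passed in all 6, and the median over the pairs was then 0.62. Prdx5 (0.62, adjusted p = 0.0963) and Gpx4 (0.55, adjusted p = 0.0517) were not called in OPC. Leaving out 1 mouse at a time gave 36 to 43 higher pairs, and 8 of the 44 calls were lost at least once.

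Colonized mice address whether microbes given late move these levels. GF minus CGF was positive and called in 43 of 58 pairs and negative in 2, against backgrounds of 19.9% and 17% of all pairs, with a median of 0.91. Since both comparisons use the same GF libraries, they are not independent of each other. Prdx5 had differences of 1.63 to 1.87, Gpx4 of 1.5 to 1.79 and Prdx2 of 1.23 to 1.7 across the 6 types, and all of these passed, but with the length and GC trend removed Prdx5 in OPC fell to 0.73 and was not called (adjusted p = 0.0561). Gpx1 passed in 5 of 5 types (1.21 to 1.86), Prdx6 in 6 of 6 (0.82 to 0.92) and Sod2 in 5 of 6. Prdx3 passed in 3 of 6 types, and Sod1 in none. With the length and GC trend removed 10 of the 45 calls were lost, among them all 5 of Gpx1. The Gpx1 pair in microglia passed the filter on low counts only through GF mice, so that a high value in GF was the condition for testing it. Without that pair the counts were 42 higher and 2 lower of 57. Prdx6 in microglia (adjusted p = 0.0435 in edgeR) was lost by DESeq2 (adjusted p = 0.117), under 5 other alternatives and without any 1 of GF mice 5, 6 and 7 or CGF mice 18 and 19, and Prdx6 in OPC, Sod2 in interneurons and OPC, and Gpx1 in microglia were also lost under several of them. Cat was lower in GF than in CGF in excitatory neurons (-0.53, SE 0.10, adjusted p = 0.00235) and astrocytes (-0.94, SE 0.22, adjusted p = 0.00371).

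CGF against SPF gave no called pair in the Hip (0 of 58, median -0.12), where 0.165% of all pairs were higher and 0.118% lower. By edgeR 7 pairs had an unadjusted p under 0.05, the smallest adjusted p was 0.394, and DESeq2 called 0. The differences ran from -0.78 for Gpx1 in astrocytes (SE 0.35) to 0.61 for Prdx3 in microglia (SE 0.31), and in excitatory neurons they were, for example, -0.29 (SE 0.22) for Prdx5, -0.41 (SE 0.26) for Gpx4 and 0.02 (SE 0.14) for Prdx1, so that equality was not shown. The map of changes by member and type sets the 3 comparisons side by side.

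**Figure D2:**
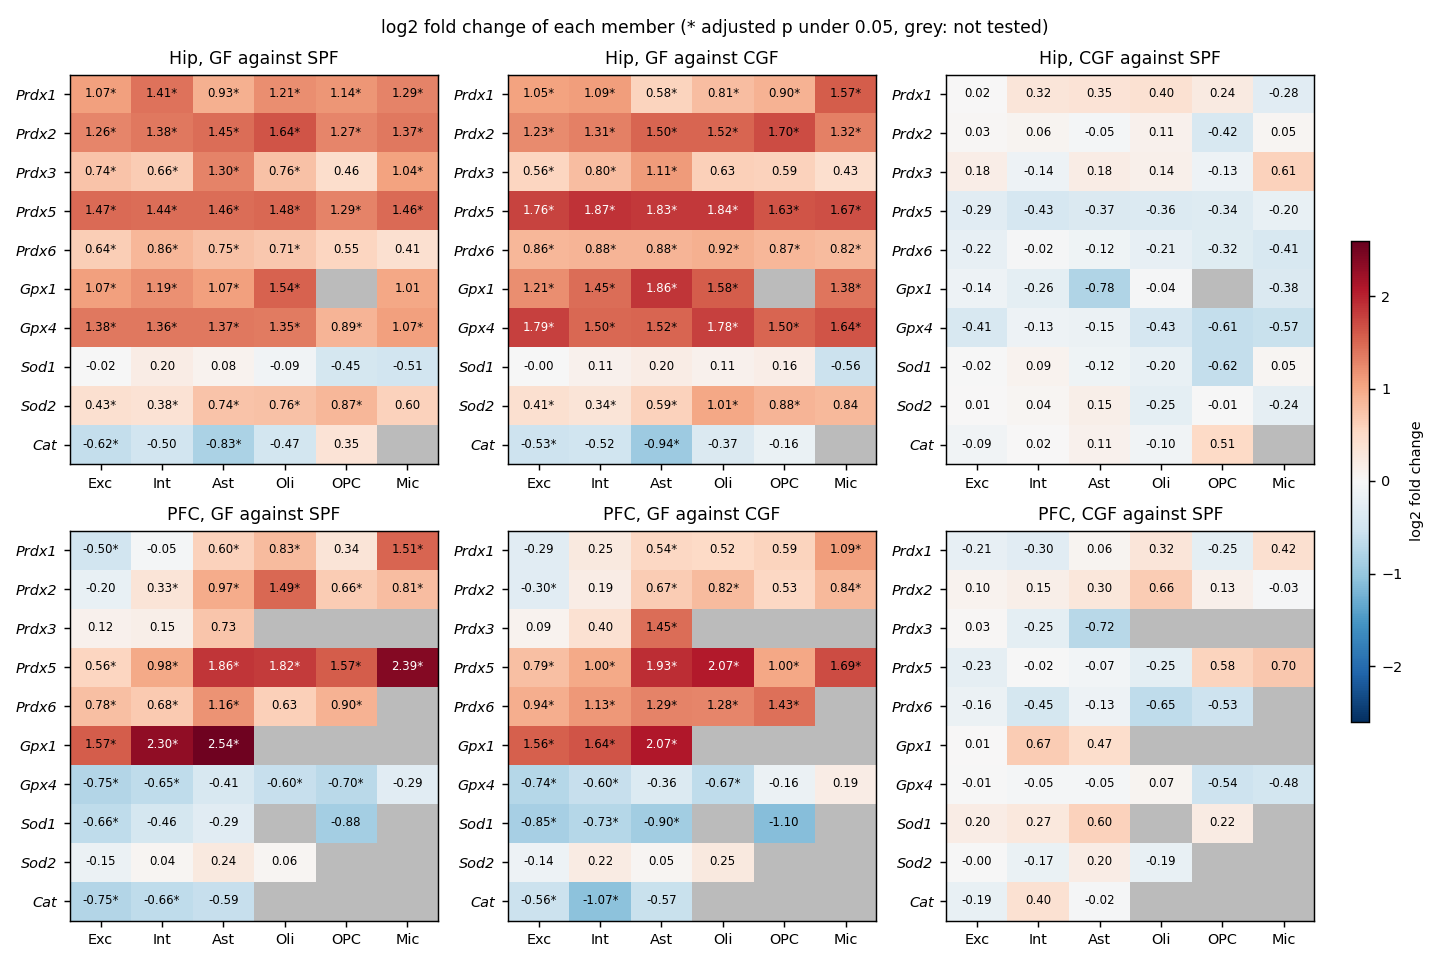
Log2 change of each member (rows) in each of the 6 major cell types (columns) for GF minus SPF, GF minus CGF and CGF minus SPF, in the Hip and in the PFC. Colour gives the size and direction, an asterisk an adjusted p under 0.05 and grey a pair that was not tested. Hip GF minus SPF has 42 pairs called higher and 2 lower, PFC GF minus SPF has 21 and 8, and the CGF minus SPF maps hold no asterisk.

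In the prefrontal cortex the members parted ways: Prdx5, Prdx6 and Gpx1 were higher in GF, Gpx4, Sod1 and Cat were lower where called, and Prdx1 and Prdx2 were higher in astrocytes and oligodendrocytes but not in excitatory neurons. Of 46 pairs tested, 21 were higher in GF (45.7%) and 8 lower (17.4%), where 24.9% of all pairs were higher and 24.6% lower. The lower share was thus not above the background. Of the tested pairs, 7 passed the filter on low counts only through the GF libraries, so that a high value in GF was the condition for testing them: Gpx1 in interneurons and astrocytes, Prdx6 in oligodendrocytes and OPC, Prdx1 and Prdx5 in microglia and Prdx3 in astrocytes. Among the other 39 pairs 16 were higher (41.0%) and 8 lower (20.5%), where the same restriction left 20.8% of all pairs higher and 26.3% lower. The restricted medians were 0.26 for microglia (2 pairs), 0.34 for OPC, 0.83 for oligodendrocytes, 0.42 for astrocytes and 0.04 for interneurons. In the Hip it concerned 1 pair, Gpx1 in microglia, which was not called against SPF. The median was -0.17 in excitatory neurons, 0.10 in interneurons, and among glia 0.67 (astrocytes), 0.73 (oligodendrocytes), 0.50 (OPC) and 1.16 (microglia), beside medians of all genes between -0.01 and 0.02. The other 14 of the 60 pairs, mostly of Gpx1, Prdx3 and Cat in the rarer types, had too few UMIs to be tested in the shallower PFC libraries.

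**Figure D3:**
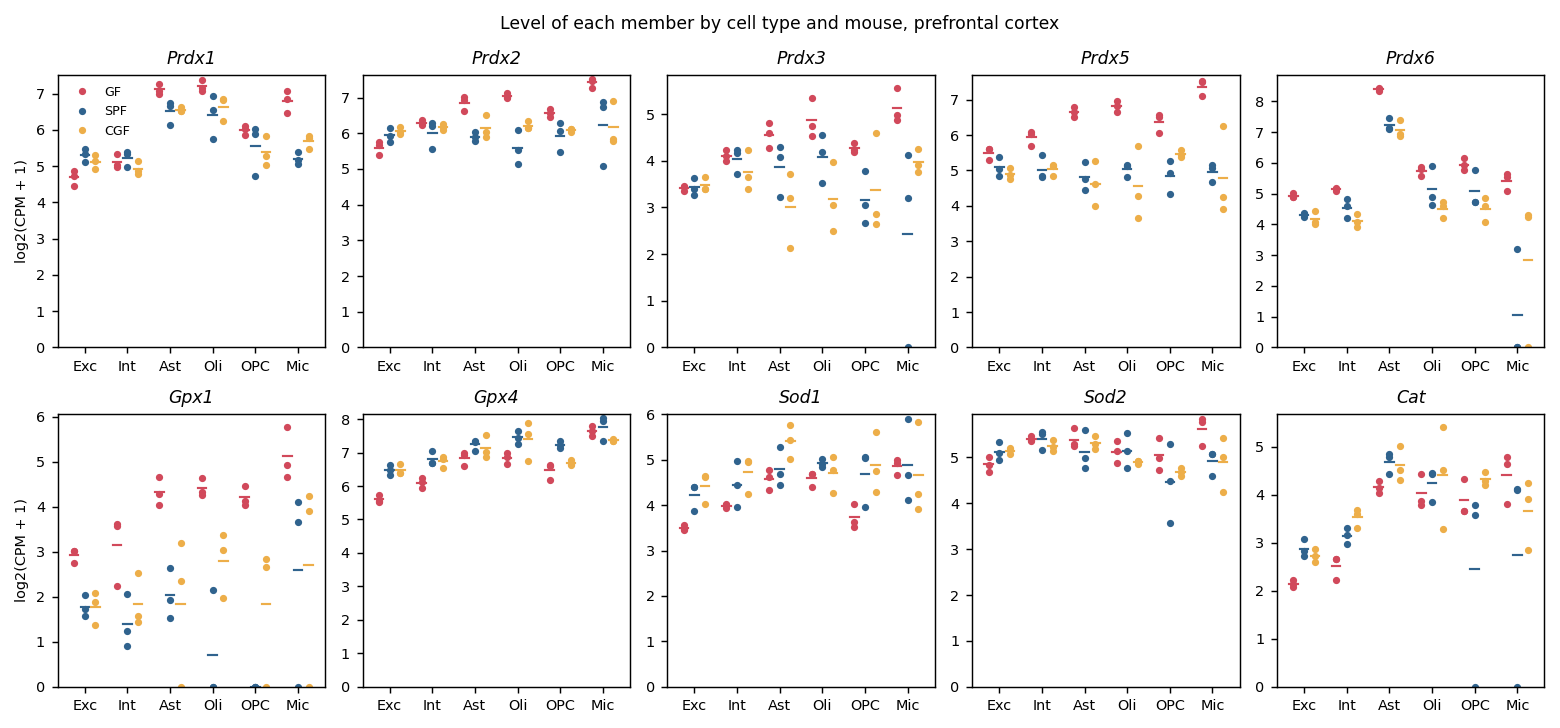
Levels of the 10 members in the PFC, 1 panel per gene: log2(CPM + 1) on the y axis, the 6 major cell types on the x axis, 1 point per mouse (GF red, SPF blue, CGF yellow) and a dash for the mean of 3 mice. Prdx5 and Gpx1 points of GF mice stand high, while the Gpx4 points of GF mice lie below the others in neurons.

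Prdx5 was the one member higher in all 6 PFC types, from 0.56 in excitatory neurons to 2.39 in microglia. In PFC microglia Prdx5 was 182, 136 and 180 in GF, 32.7, 35.0 and 24.4 in SPF, and 75.0, 14.0 and 18 in CGF mice. These levels stand on 98, 62 and 115 UMIs in GF, 2, 3 and 3 in SPF, and 12, 1 and 1 in CGF mice, and SPF microglia carried only 678 to 721 UMIs per nucleus (median) against 1501 to 1670.5 in GF. The pair passed the filter only through GF mice and could not be tested with thinned sums or the stricter gate, so the microglial value is a description. Astrocytes gave 1.86 (SE 0.24, adjusted p = 1.66e-06).

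Prdx6 was higher in 4 of 5 types. PFC astrocytes showed 336, 349 and 319 in GF, 137, 174 and 138 in SPF, and 121, 115 and 169 in CGF mice, and the GF mice stood apart from both (1.16, SE 0.15, adjusted p = 2.95e-06). Oligodendrocytes did not pass (0.63, SE 0.30, adjusted p = 0.0995), and OPC (0.90, adjusted p = 0.0377) passed the filter only through GF mice and was lost by DESeq2 (adjusted p = 0.125) and without GF mouse 5 or 7 or SPF mouse 31 or 32.

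Gpx1 passed in the 3 types tested, with the largest difference of the family in each of them, 1.57 in excitatory neurons (SE 0.25, adjusted p = 0.000163), 2.30 in interneurons and 2.54 in astrocytes. The values of interneurons and astrocytes are descriptions, since those pairs passed the filter only through GF mice, and neither could be tested with the stricter gate or the 2% mitochondrial limit. Its levels in PFC astrocytes were 18.7, 15.6 and 24.4 in GF, 1.87, 5.27 and 2.79 in SPF, and 8.16, 4.07 and 0 in CGF mice, from 38, 27 and 57 UMIs in GF, 1, 3 and 2 in SPF and 7, 3 and 0 in CGF mice. In OPC, which were not tested, GF mice had 21.0, 16.5 and 15.4 (18, 13 and 17 UMIs), while no UMI was counted in any SPF mouse. A count of 0 over the 3 SPF libraries allows up to 4.86 CPM (3 counts over the group, for counting error only), below each GF mouse.

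Prdx1 and Prdx2 split by cell type. In PFC excitatory neurons Prdx1 was 28.3, 21.0 and 25.6 in GF, 39.6, 43.6 and 33.5 in SPF, and 29.1, 39.0 and 34.2 in CGF mice, and was thus lower in GF than in SPF (-0.50, SE 0.14, adjusted p = 0.0103). Per 1000 nuclei the order was the other way, 231 to 289 UMIs in GF and 158 to 201 in SPF. Prdx1 was higher in GF in astrocytes (0.60, SE 0.16, adjusted p = 0.00434) and oligodendrocytes (0.83, SE 0.23, adjusted p = 0.00580), both lost with the length and GC trend removed and without SPF mouse 32, and OPC gave 0.34 (adjusted p = 0.411). In microglia its level was 134, 87.9 and 114 in GF, 32.7, 35.0 and 40.7 in SPF and 43.8, 56.2 and 53.9 in CGF mice. The SPF and CGF values rest on 2 to 7 UMIs each and the pair passed the filter only through GF mice, so its difference (1.51) is a description. Prdx2 was higher in oligodendrocytes (1.49, SE 0.23, adjusted p = 1.14e-05) and astrocytes (0.97, SE 0.18, adjusted p = 0.000169), while excitatory neurons gave -0.20 (SE 0.11, adjusted p = 0.121). Its calls in interneurons, OPC and microglia had adjusted p of 0.0496, 0.0471 and 0.0439 and were each lost when single mice were left out. Prdx3 was tested in 3 types and called in none.

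Gpx4 went the other way from the Hip and was lower in GF in 4 of 6 PFC types, excitatory neurons, interneurons, oligodendrocytes and OPC. In PFC excitatory neurons Gpx4 was 46.3, 44.5 and 51.9 in GF, 79.2, 97.9 and 87.8 in SPF, and 83.0, 101 and 82.3 in CGF mice. Every GF mouse was below every other mouse (-0.75, SE 0.13, adjusted p = 0.00025), and interneurons gave -0.65 (SE 0.13, adjusted p = 0.000712). The direction depends on the denominator. Per 1000 excitatory nuclei, GF mice had 473 to 562 Gpx4 UMIs and SPF mice 353 to 452, since GF nuclei carried more UMIs in all. The GF mean was likewise above the SPF mean in interneurons (466 and 383), oligodendrocytes (301 and 183) and OPC (341 and 199). The call in oligodendrocytes (-0.60, SE 0.21, adjusted p = 0.0239) turned to 0.43 (adjusted p = 0.315) when nuclei with more than 2% mitochondrial UMIs were left out, and it was also lost without GF mouse 6 or 7 or SPF mouse 31 or 32. The OPC call was lost with no filter (adjusted p = 0.0640), with the stricter gate (adjusted p = 0.0798), with the 2% mitochondrial limit (-0.44, adjusted p = 0.310) and without GF mouse 6 or SPF mouse 32. With the length and GC trend removed, Gpx4 was called in 1 of 6 types, and its median moved from -0.63 to -0.20.

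Sod1 was lower in GF in excitatory neurons, at 10.1, 9.88 and 10.8 in GF, 20.1, 20 and 13.7 in SPF and 23.8, 15.2 and 23.9 in CGF mice (-0.66, SE 0.16, adjusted p = 0.00382). Per 1000 nuclei the order was again the other way, 104 to 117 in GF and 64.6 to 92.5 in SPF. Sod2 was called in none of 4 types. Cat was lower in GF in excitatory neurons, at 3.22, 3.43 and 3.69 in GF, 5.65, 6.08 and 7.41 in SPF, and 5.61, 6.34 and 5.10 in CGF mice (-0.75, SE 0.18, adjusted p = 0.00301), and in interneurons (-0.66, SE 0.27, adjusted p = 0.0494). Per 1000 nuclei Cat averaged 36.8 in GF and 29.4 in SPF excitatory neurons, and 33.3 and 27.5 in interneurons, again the other way. The interneuron call was lost by DESeq2 (adjusted p = 0.0900), with no filter, thinned sums, the stricter gate, the 2% mitochondrial limit or only the 6 libraries compared, and without GF mouse 5, 6 or 7, SPF mouse 31 or 32, or CGF mouse 19.

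The PFC counts were less firm than those of the Hip. With sums thinned to equal depth, 12 pairs were higher of 37 tested. With a stricter marker gate 5 were lower, and leaving out 1 mouse gave 15 to 20 higher and 5 to 9 lower, with 9 of the 29 calls lost at least once.

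In the PFC, GF minus CGF, which uses the same GF libraries, was called higher in 20 and lower in 9 of 46 pairs, against backgrounds of 24.9% and 24.2%, with a median of 0.46. Prdx5 passed in all 6 types (0.79 to 2.07), Prdx6 in 5 of 5 (0.94 to 1.43) and Gpx1 in 3 of 3 (1.56 to 2.07). The 7 pairs that passed the filter only through GF mice are all among the 20, and the other 39 had 13 higher and 9 lower, where the same restriction left 20.7% of all pairs higher and 26% lower. Sod1 was lower in GF than in CGF in excitatory neurons (-0.85, SE 0.16, adjusted p = 0.000651), interneurons (-0.73, SE 0.21, adjusted p = 0.00934) and astrocytes (-0.90, SE 0.25, adjusted p = 0.00523). The calls in interneurons and astrocytes were lost without CGF mouse 17 (adjusted p = 0.0504 and 0.0713), and per 1000 nuclei the means were the other way, 103 in GF and 83.8 in CGF interneurons 72.1 and 57.3 in astrocytes, and 110 and 92 in excitatory neurons. Gpx4 was lower in 3 types, of which interneurons were lost with the length and GC trend removed and oligodendrocytes with that, thinned sums, the stricter gate, the 2% mitochondrial limit and without CGF mouse 17 or 18 or GF mouse 6. Cat was lower in 2 of 3, of which excitatory neurons were lost with the 2% mitochondrial limit (adjusted p = 0.0603) and without CGF mouse 18 or GF mouse 5, and interneurons with the stricter gate (adjusted p = 0.107). Per 1000 nuclei the means of GF were again above those of CGF mice for Gpx4 in excitatory neurons (508 and 394) and interneurons (466 and 351) and for Cat in excitatory neurons (36.8 and 25.3). Prdx2 was lower in excitatory neurons (-0.30, edgeR adjusted p = 0.0269), a call lost without CGF mouse 19 or GF mouse 6. Its means per 1000 nuclei were also the other way (508 in GF and 290 in CGF). CGF against SPF again gave 0 called pairs of 46 (median -0.02), beside 0.103% of all pairs higher and 0.0999% lower. There were 4 pairs with an unadjusted p under 0.05, the smallest adjusted p was 0.398, and DESeq2 called 0.

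Whether the change of GF against SPF differed between Hip and PFC was tested in 1 fit over both regions. In 14 of 60 pairs the change was more positive in the Hip and in 0 it was more positive in the PFC, against 14.2% and 16.9% of all pairs. DESeq2 also gave 14 and 0, and 4 pairs were more positive in the PFC at an unadjusted p under 0.05 by edgeR. Gpx4 differed in all 6 types, by 2.07 (SE 0.29, adjusted p = 1.4e-05) in excitatory neurons, 2.01 (SE 0.26, adjusted p = 3.9e-06) in interneurons, while the glial values were 1.91 for oligodendrocytes, 1.81 for astrocytes, 1.58 for OPC and 1.40 for microglia. It is the lipid peroxide enzyme whose Hip rise and PFC fall, as shares of UMIs, are described above. Its oligodendrocyte call was lost with the 2% mitochondrial limit and its microglia call with the stricter gate. The other 8 pairs were neuronal: Prdx1 (1.51) and Prdx2 (1.41) in excitatory neurons and in interneurons (1.45 and 1.04), and Prdx5 (0.85), Sod1 (0.58), Prdx3 (0.56) and Sod2 (0.51) in excitatory neurons. The Prdx5, Sod1 and Prdx3 calls were each lost when single mice were left out. Prdx6, Gpx1 and Cat were called in no type, which does not show equality. By edgeR the Gpx1 values all leaned to the PFC (-4.85 to -0.55, smallest adjusted p = 0.0841). Prdx6 ran from -2.87 to 0.18 (smallest adjusted p = 0.0794) and Cat from -1.96 to 0.16 (smallest adjusted p = 0.189). Some of these values stand on almost no counts. The SPF mice of the PFC had 0, 0 and 0 Gpx1 UMIs in OPC and 0, 1 and 0 in oligodendrocytes. They had 0, 0 and 1 Prdx6 UMIs and 1, 0 and 2 Cat UMIs in microglia. The ranges of these 3 members are therefore a description and show no difference between regions. The 14 called differences are of shares of UMIs, and on the scale of UMIs per nucleus, which was not tested, the order turned in 7 of the 14. Per 1000 nuclei the ratio of the GF to the SPF mean was larger in the Hip for Gpx4 in excitatory neurons (2.14 against 1.25 in the PFC), interneurons, astrocytes (1.90 against 1.88) and oligodendrocytes, for Prdx1 in both neuron types and for Prdx2 in excitatory neurons. It was larger in the PFC for Prdx5 (3.1 against 2.29), Prdx3 (2.29 against 1.38), Sod2 (1.90 against 1.12) and Sod1 (1.33 against 0.816) in excitatory neurons, for Prdx2 in interneurons and for Gpx4 in OPC and microglia. The 2 regions also differ in depth and mitochondrial share between the same groups, as given above, and the region and its library preparation cannot be told apart.

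**Figure D4:**
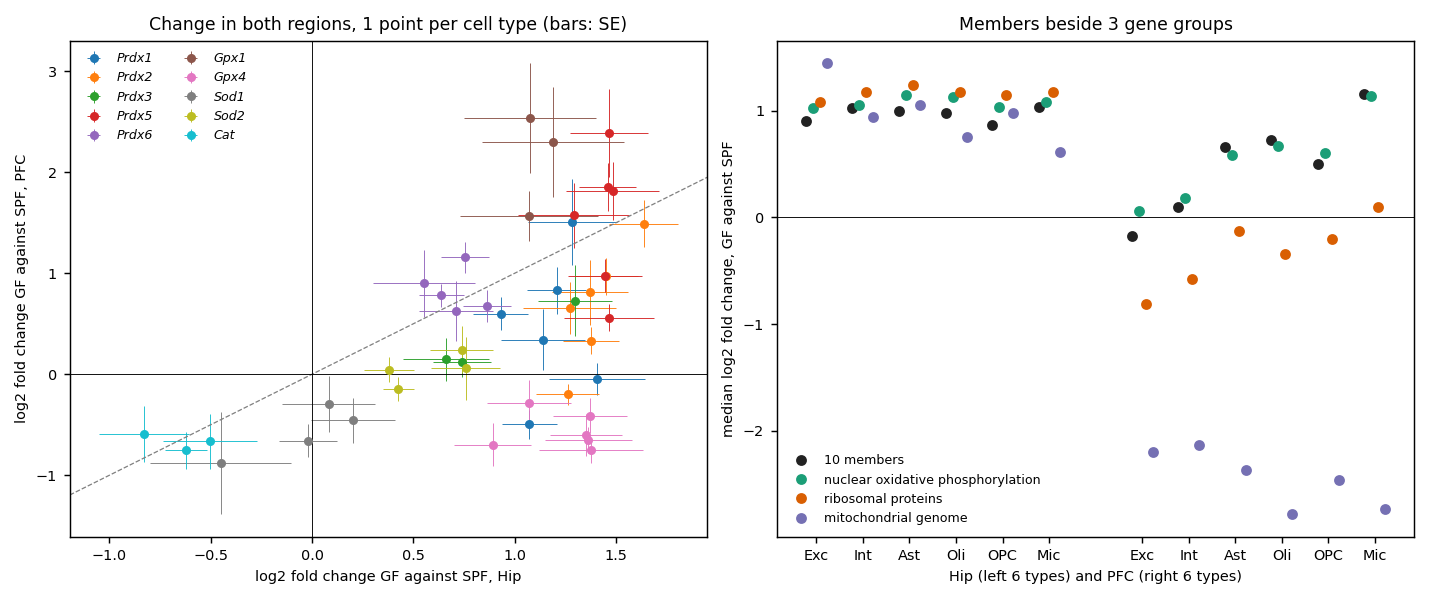
Left, log2 change of GF against SPF in the Hip (x axis) and the PFC (y axis) for each member and type, with SE bars and a dashed line of equality; the Gpx4 points lie right of 0 and below 0. Right, median log2 change of the members by cell type and region beside nuclear oxidative phosphorylation genes, cytosolic ribosomal protein genes and the protein genes of the mitochondrial genome, whose PFC medians are -2.78 to -2.13; the members' PFC microglia median is over 4 pairs, 2 of which passed the filter only through GF mice.

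The gene groups set beside the members moved mostly in the same direction as they did in the Hip. Nuclear oxidative phosphorylation genes, which encode the respiratory chain, were higher in GF in 351 of 441 pairs and lower in 0 (medians 1.03 to 1.15 by type), and cytosolic ribosomal protein genes in 295 of 373 with 1 lower (1.08 to 1.24). In the PFC the nuclear oxidative phosphorylation genes were higher in 169 (44.8%) and lower in 63 (16.7%) of 377 pairs, shares close to the 45.7% and 17.4% of the members. The ribosomal protein genes were higher in 28 and lower in 136 of 310 PFC pairs, and the 13 protein genes of the mitochondrial genome were lower in 77 of 77. In the Hip these 13 genes were higher in 37 of 69 pairs and lower in 0 (medians 0.61 to 1.45). Without the pairs that passed the filter only through GF mice, the oxidative phosphorylation genes had 138 higher and 63 lower of 341 PFC pairs, and the ribosomal protein genes 23 and 136 of 303. Whether the members' changes differ from those of these groups was not tested.

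In GF mice alone, the levels of the 2 regions were set side by side. The PFC libraries were the deeper ones (59126586 to 71463928 UMIs against 49067853 to 56240654), and median UMIs per excitatory nucleus were 9313 to 10032.5 in the PFC and 6071 to 6863 in the Hip, and the part of this in the differences was not tested. Of 60 pairs, 12 were higher in the Hip and 0 in the PFC (all pairs, 5.71% and 6.2%), with a median of 0.33. Excitatory neurons held 6 of them: Prdx5 0.75, Prdx2 0.70, Prdx3 0.65, Prdx1 0.60, Cat 0.41 and Sod2 0.35. Oligodendrocytes added Sod2 (0.85, SE 0.19, adjusted p = 0.00368), Prdx5 (0.79), Gpx4 (0.61) and Prdx2 (0.59), and astrocytes Prdx5 (0.81) and Prdx2 (0.59). This count rests on single mice, since 3 pairs were called without GF mouse 6 and 7 without GF mouse 7, and with the mouse as a block it was 16.

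The order of cell types was taken for each member over the 9 mice of a region and tested between neighbours within a mouse (exact two-sided sign-flip permutation test, 100 neighbour pairs, of which 19 passed). With the stricter gate 11 steps were called and with TMM over the sums of a region 9. With 9 mice the smallest p is 0.00390625, and 0.0244 after adjustment. Prdx6 had the steepest order: in Hip astrocytes it averaged 262 CPM, 10.0 times its level in interneurons, and it stood above oligodendrocytes by 2.22 on the log2 scale (SD 0.27, higher in 9 of 9 mice, adjusted exact permutation p = 0.0244). The PFC gave 207 in astrocytes, a lead of 2.38 over OPC (SD 0.55, adjusted exact permutation p = 0.0244). Prdx1 was highest in oligodendrocytes, at 137 in the Hip and 112 in the PFC, and lowest in excitatory neurons, at 25.7 and 32.7. In neither region were oligodendrocytes and astrocytes told apart for Prdx1 (adjusted exact permutation p = 0.627 in the Hip and 0.904 in the PFC). The called Hip step came between OPC and interneurons (1.34).

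By mean level, Prdx2, Prdx3, Gpx1 and Gpx4 had the same Hip order, from microglia over oligodendrocytes, astrocytes, OPC and interneurons to excitatory neurons. Prdx2, Gpx1 and Gpx4 had it in the PFC too, but no PFC step of Prdx2 or Gpx1 was called. For Gpx1, PFC oligodendrocytes exceeded astrocytes in 3 of 9 mice. Microglia led the Hip order for Prdx2 (128), Prdx3 (34.6), Prdx5 (139), Gpx1 (22.8), Gpx4 (124) and Sod1 (30.0), and excitatory neurons or interneurons closed it for each. The leads for Gpx1 and Sod1 were not called (adjusted exact permutation p = 0.0977 and 0.460), and that of Sod1 held in 4 of 9 mice. The lead of microglia over oligodendrocytes passed for Gpx4 (0.35), Prdx5 (0.40), Prdx3 (0.42) and Prdx2 (0.25), of which none held under TMM and Prdx3 and Prdx2 also not with the stricter gate, and the last turned to -0.04 (adjusted p = 0.753) when the sums of a region were scaled together by TMM. In the PFC the Gpx4 mean was also highest in microglia (196), but this lead was not called (7 of 9 mice, adjusted exact permutation p = 0.158). Excitatory neurons were last (74.9), and interneurons stood above them by 0.37. The catalase mean was highest in Hip oligodendrocytes (23.3) and PFC astrocytes (22.0), but neither lead was called (adjusted exact permutation p = 0.391 and 0.383). It was lowest in excitatory neurons (6.12 and 5.17). The step of 1.39 between Hip OPC and interneurons was not called with the stricter gate (adjusted p = 0.0521). Sod2 varied least, 43.9 in Hip oligodendrocytes against 28.0 in OPC, a ratio of 1.57, and only its step from interneurons to excitatory neurons passed (0.25), though not under TMM (0.12, adjusted p = 0.102). Nuclei with fewer UMIs tended to be those of the types with the higher levels, neurons carrying the most and microglia the fewest, and the part of this in the order was not tested.

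Among the rarer types, endothelial nuclei had high levels of several members. Averaged over 9 mice, Hip endothelial nuclei held 292 ± 151 CPM of Prdx1, 235 ± 94.0 of Gpx4, 120 ± 59.5 of Gpx1 and 41.4 ± 14.9 of Cat (SD, n = 9), above the mean of each of the 6 major types. The PFC gave 163 for Prdx1, 241 for Gpx4, 46.5 for Gpx1 and 45.8 for Cat. Only 393 Gpx1 UMIs stand behind the Hip value, and no test was run on these types.

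The genes that supply the members with electrons changed in the same comparisons, though not evenly, and their counts stand beside the 19.3% of all Hip pairs that were higher and the 16.3% that were lower. Single genes named from the lists were picked for their large mean change between GF and SPF in these data. What is given for them in that comparison is a description and adds no support. In the thioredoxin system, which recharges the peroxiredoxins, 29 of 72 Hip pairs were higher and 4 lower in GF than in SPF, with type medians of 0.16 to 0.65. Glrx5, a mitochondrial glutaredoxin for iron-sulphur clusters, was higher in 6 of 6 types (mean 1.36), at 25.2 ± 3.43 in GF against 9.19 ± 2.19 in SPF excitatory neurons (SD, n = 3). In the glutathione system 25 of 56 were higher and 3 lower (0.07 to 0.87), or 23 and 3 of 54 without the pairs that passed the filter only through GF mice, and Mgst3, a microsomal glutathione transferase with peroxidase activity, was higher in 6 of 6 (mean 1.37), 1 of them tested only through GF mice. NRF2 with its regulators and classical targets had 14 of 40 higher and 0 lower (0.07 to 0.59), and the other peroxidases and dismutases (Prdx4, Gpx3, Gpx7, Gpx8, Sod3, Ccs) had 5 of 17 higher and 0 lower (4 of 16 without such pairs). The NADPH supply had 1 of 29 higher and 5 lower (17.2%, near the background; medians -0.24 to 0.23), with Me1, the cytosolic malic enzyme, lower in 4 of 6 types (mean -0.61). Peroxisomal and mitochondrial sources of hydrogen peroxide had 1 of 31 higher and 5 lower (16.1%, near the background; medians -0.43 to -0.04). Maob, the monoamine oxidase of astrocytes, was lower in 1 of 4 types (mean -0.84), but in astrocytes themselves it stood at 61.1 ± 9.09 in GF and 59.9 ± 11 in SPF mice (SD, n = 3), and the other types held at most 6.44 CPM on average in either group.

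In the PFC the same lists moved in both directions, beside 24.9% of all pairs higher and 24.6% lower. Single genes were again named for their large change between GF and SPF, so their values are a description. Some pairs of the lists, too, passed the filter only through GF mice, and without these the shares stand beside 20.8% and 26.3%. The thioredoxin system had 17 higher and 13 lower of 51, and 14 and 13 of 47 without those pairs. Txn1 (thioredoxin itself) was higher in 4 of 4 types (mean 1.68), of which 2 passed the filter only through GF mice (mean of the other 2, 0.78). The glutathione system had 15 higher and 8 lower of 42 (10 and 8 of 36 without those pairs), Mgst3 being higher in 5 of 5 (mean 1.41), 2 of them tested only through GF mice, and Gstm1, a cytosolic glutathione transferase, lower in 5 of 5 (mean -1.90). In PFC astrocytes the 3 GF mice averaged 36.8 ± 8.55 for Gstm1 (SD, n = 3), against 150 in SPF and 113 ± 21.4 in CGF mice. NRF2 and its regulators and targets had 13 higher and 11 lower of 33 (9 and 11 of 28 without those pairs), and Keap1, which marks NRF2 for degradation, was lower in 5 of 5 types (mean -1.27), with excitatory neurons at 14.2 ± 1.06 in GF mice, 37.9 ± 6.19 in SPF mice and 43.7 ± 6.41 in CGF mice. These falls of Gstm1 and Keap1 are of shares of UMIs. Median UMIs per PFC nucleus were 9313 to 10032.5 in GF and 3908 to 4181 in SPF excitatory neurons, and 2645 to 2817 and 1047 to 1073 in astrocytes. Levels of the list genes per nucleus were not computed, so a fall per nucleus is not shown. Other peroxidases and dismutases had 2 higher and 2 lower of 9 (1 and 2 of 8 without those pairs), and the NADPH supply 3 and 1 of 16 (2 and 1 of 15). The hydrogen peroxide sources had 5 and 5 of 21 (5 and 5 of 20), near the background. The other peroxidases and dismutases lie near it on the full counts, and without those pairs 12.5% were higher and 25% lower. None of these lists had a called gene between CGF and SPF in either region.

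Over the 36 means of 6 types, 2 regions and 3 groups, each member was set against 8029 genes with a mean of at least 20 CPM by Pearson correlation of log2 levels, as a description only, since the points share libraries, depth and cell types. Gpx4 was most like Rpl8 (0.98) and Ndufb7 (0.97), and Prdx5 was most like Ubb, Bsg and Bex3 (0.98 each). Prdx2 followed Eif1 (0.97), Ndufa6 and Ppia (0.96 each), and Prdx3 followed Herpud1, Park7 and Actg1 (0.92 each). Gpx1 stood nearest to Tmco1 and Bri3 (0.93 each) and Tmbim4 (0.92). Other members had looser company: Prdx6 was nearest to F3, Asb8 and Htra1 (0.90 each), Prdx1 to Fabp5 (0.91), Ccdc59 (0.90) and Tob2 (0.89), and Cat to Agbl3 (0.90), Ints4 and Ino80d (0.88 each). Sod1 was nearest to Eif5 (0.90), Nsfl1c (0.89) and Psap (0.88), and Sod2 to Atp5l (0.84), Clpp (0.83) and Nkiras1 (0.82). Within the family, the closest of the 45 pairs were Prdx3 with Prdx5 (0.90), Prdx2 with Prdx5 (0.87) and Prdx5 with Gpx1 (0.85), and the least alike were Sod2 with Cat (0.06) and Prdx5 with Sod1 (0.12).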

How the data were processed

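Nuclei were isolated from frozen Hip and PFC and sequenced by droplet-based 3′ RNA-seq. The deposited values are raw UMI counts per gene and barcode, which the authors made with Cell Ranger 3.1.0 (per the file headers) on mm10 with Ensembl genes, after CASAVA 1.8 (per the labels). The filters of Cell Ranger had been applied, and whether intronic reads were counted is not given in the sources used here. The study's own tables give the barcode numbers of GF mice 6 and 7 exchanged relative to the files, which changes no value of a group.

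From these counts, nuclei with at least 200 genes and at most 10% mitochondrial UMIs were kept (138000 of 139924). A nucleus received a type if it had at least 2 of its markers and odds of at least 20 against the other types. No doublets were called or removed, and a stricter gate (3 markers and a lead of 2) was an alternative. Libraries shared at most 29 barcodes. UMIs were summed per mouse and type (at least 20 nuclei), filtered by filterByExpr (10 counts at the median library, in 3 libraries) and tested with edgeR 4.0.16 (TMM scaling, quasi-likelihood, all 9 mice of a region in a fit; R 4.3.3, limma 3.58.1), with Benjamini-Hochberg adjustment over all genes of a type. Each SE was taken as the size of the log2 fold change over the root of F. Regions were compared by an interaction term over 18 libraries. Both regions came from the same animal: deviations from the group means correlated at 0.163 to 0.318 between the regions of a mouse in excitatory neurons, and 0.00146 to 0.177 in the other types. DESeq2 1.42.0, other scalings, filters, thinning, gates and each mouse left out were alternatives. Sequences and motifs were handled in Python 3.11.15 (NumPy 2.4.6, SciPy 1.17.1, pandas 2.3.3).

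The 10 members and the lists of other redox genes were chosen with earlier results of these data known. Named were all members, the 2 list genes with the largest mean rise and fall per region among those tested in at least 4 types, and the 3 genes most like each member, of which 1 is not reported here. Counting error adds to the spread where UMIs are few. In data simulated on Hip microglia (8233 genes, 200 changed) edgeR recovered 33% of changes of 1 and 86% of changes of 2 on the log2 scale with 6 false calls. On PFC astrocytes (9974 genes) it recovered 49% and 95% with 7 false calls. The simulation gave all genes 1 fixed spread between libraries, not estimated from these data. It also changed fewer genes than were called here, so its rates may not hold for these data.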

Additional observations from a re-analysis of the deposited data

Results flagged for a closer look

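The change of GF against SPF differed between Hip and PFC, by the interaction term of the edgeR fit, in 14 pairs of member and cell type, all more positive in the Hip as shares of UMIs. Per 1000 nuclei the ratio of GF to SPF was larger in the PFC in 7 of them: Prdx3, Prdx5, Sod1 and Sod2 in excitatory neurons, Prdx2 in interneurons and Gpx4 in OPC and microglia. For Gpx4 the Hip change exceeded the PFC change by 2.07 in excitatory neurons, 2.01 in interneurons, 1.91 in oligodendrocytes, 1.81 in astrocytes, 1.58 in OPC and 1.40 in microglia (log2). The oligodendrocyte value was 0.68 (adjusted p = 0.305) with nuclei of at most 2% mitochondrial UMIs, and the microglia value 1.22 (adjusted p = 0.0840) with a stricter gate. Over all members the 2% limit, fitted without microglia, kept 10 of the calls and lost 3. Prdx1 differed by 1.51 in excitatory neurons and 1.45 in interneurons, and Prdx2 by 1.41 and 1.04. In excitatory neurons Prdx5 differed by 0.85, Prdx3 by 0.56, Sod1 by 0.58 and Sod2 by 0.51.

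The values of Prdx5, Prdx3 and Sod1 were lost without single mice. Prdx5 was not called without GF mouse 6 (0.70, adjusted p = 0.0769) or SPF mouse 31 (0.63, adjusted p = 0.0983), and Prdx3 not without GF mouse 6 (0.41, adjusted p = 0.133), SPF mouse 30 (0.60, adjusted p = 0.0501) or SPF mouse 31 (0.40, adjusted p = 0.156). Sod1 was lost when any 1 of GF mice 5, 6 and 7 or SPF mice 30 and 31 was left out. Depth per nucleus was lower in GF than in SPF mice in the Hip and higher in the PFC, the mitochondrial share was higher in GF in the Hip and lower in the PFC, and their part in these 14 differences was not tested beyond the alternatives named.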

How the results depend on the processing

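Of 255 recomputed counts and values over the planned and added alternatives, 241 stayed within the range taken as the same and 14 moved. That range is not given here, so these 2 counts do not measure how firm single calls are. In the Hip, the 2 pairs lower in GF than in SPF became 1 to 2 when a mouse was left out, with 36 to 43 higher, and the 2 pairs lower in GF than in CGF became 4 with the length and GC trend removed, with 37 to 45 higher when a mouse was left out. In the PFC, pairs higher in GF than in SPF fell from 21 to 12 with sums thinned to equal depth (37 pairs tested) and ran from 15 to 20 without a mouse. Pairs lower in GF fell from 8 to 5 both with the stricter gate and with at most 2% mitochondrial UMIs, and ran from 5 to 9 without a mouse. Pairs higher in GF than in CGF fell from 20 to 10 when thinned and to 13 with the stricter gate and with at most 2% mitochondrial UMIs, and ran from 18 to 20 without a mouse, with 7 to 9 lower. With the mouse as replicate block, the difference between regions kept 14 calls and Hip against PFC in GF mice rose from 12 to 16, and no other edgeR comparison holds the same mouse on both sides. Hip against PFC in GF mice gave 3 to 13 without a mouse. The difference between regions gave 11 to 15 without a mouse, and 1 pair more positive in the PFC with at most 2% mitochondrial UMIs. The order of types kept 19 called steps in the main scaling, 11 with the stricter gate and 9 with TMM over the 54 sums of a region. The direction turned for Sod2 in PFC interneurons with the length and GC trend removed (-0.36, adjusted p = 0.0201), for Gpx4 in PFC oligodendrocytes with at most 2% mitochondrial UMIs (0.43, adjusted p = 0.315) and for Prdx2 in Hip microglia above oligodendrocytes under that TMM scaling (-0.037, adjusted p = 0.753); the cause was not tested. A limit of 0.5% mitochondrial UMIs could not be fitted in the PFC or across regions, so 2% was added after seeing the data, without microglia. Rare types and sparse members (Gpx1, Prdx3, Cat) are limited by depth in the PFC.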
